A study of Mus musculus with 108 samples.

Results

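The transcripts described here are those of the AMPA and NMDA receptor subunits in the brains of wild-type (WT) and Cul3+/- (HET) mice. The 10 member genes were Gria1, Gria2, Gria3, Gria4, Grin1, Grin2a, Grin2b, Grin2c, Grin2d and Grin3a, taken by their Ensembl identifiers out of 53465 genes in the table of counts. The study asked how loss of 1 copy of Cul3, which encodes a scaffold of ubiquitin ligases, alters the brain transcriptome across development. Total RNA of 3 regions of the same mice was sequenced, the cerebral cortex (CX), the cerebellum (CB) and the hippocampus (HIP), from embryos (E17.5), early postnatal mice (P7) and adults (P35), with 6 WT and 6 HET mice at each period. HET mice carry a 1-base insertion that shifts the reading frame in exon 6 of Cul3, made with CRISPR/Cas9 in a single founder and backcrossed to C57BL/6N (spelled C56Bl/6N in the labels), and every control is a WT mouse with no other allele or treatment. Both genotypes share that background, and the labels do not say which mice were male or female.

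Adult mice P35_22 and P35_23 were left out because the labels and a supplementary table of the study give them opposite genotypes, so that adult groups held 5 mice. This left 34 mice, with totals between 15126114 and 44411282 estimated counts per library. Cul3 itself separated the genotypes in each of the 9 datasets (a dataset is 1 period and region): in E17.5 CX its level was 190 to 206 CPM (counts scaled to a common library total after TMM normalization) in WT and 109 to 119 CPM in HET, and its log2 change ranged over the datasets from -0.99 to -0.74. The adult CB labels matched a list of markers. The summed CPM of cerebellar granule neuron markers was 2698 to 3197 in WT adult CB against 36.4 to 43.6 in CX and 42.8 to 75.3 in HIP. This list does not tell CX from HIP, and its values at E17.5 and P7 are not given here. In whole tissue, fewer cells of a type and less RNA per cell cannot be told apart. The periods come from different mice and no library batch is given in the labels, so period and any batch of preparation cannot be told apart.

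Glutamate opens AMPA receptors, which are assembled from 4 subunits encoded by Gria1 to Gria4 and carry most of the fast excitatory current, and NMDA receptors, which combine the obligatory GluN1 subunit (Grin1) with GluN2 subunits (Grin2a to Grin2d) or GluN3 subunits (Grin3a). The AMPA subunit GluA2 makes the channel nearly impermeable to calcium once its messenger RNA has been edited at the pore, and the GluN2 subunit sets how slowly an NMDA receptor closes and how strongly magnesium blocks it. Textbook accounts describe a replacement of GluN2B by GluN2A in the maturing forebrain and high GluN2C in mature cerebellar granule cells. GluN2D and GluN3A are known as subunits of young brain and of some interneurons.

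The AMPA and GluN2 members form families that show in the sequence of the channel pore, so the pore codon is printed with its surroundings. In AMPA subunits this is the glutamine codon of the so-called Q/R site, and in NMDA subunits the asparagine codon that sets calcium permeability. Capitals mark that codon, each run is 45 bases of coding sequence 5′ to 3′ from GRCm38 with GENCODE M21 transcripts, and the coordinates are those of the codon. Gria1 lies on the plus strand at chr11:57243094-57243096 in exon 11 of 16, Gria2 on the minus strand at chr3:80706911-80706913 in exon 11 of 16, Gria3 on the plus strand at chrX:41610265-41610267 in exon 11 of 16, and Gria4 on the minus strand at chr9:4464137-4464139 in exon 12 of 17.
Gria1: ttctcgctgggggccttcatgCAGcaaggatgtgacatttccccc
Gria2: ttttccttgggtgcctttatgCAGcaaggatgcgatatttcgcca
Gria3: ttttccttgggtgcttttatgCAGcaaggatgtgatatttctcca
Gria4: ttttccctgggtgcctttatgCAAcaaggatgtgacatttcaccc
The NMDA members shown all lie on minus strands: Grin1 at chr2:25297386-25297388 in exon 13 of 20, Grin2a at chr16:9653561-9653563 in exon 10 of 14, Grin2c at chr11:115253863-115253865 in exon 11 of 15, and Grin2d at chr7:45854393-45854395 in exon 8 of 12.
Grin1: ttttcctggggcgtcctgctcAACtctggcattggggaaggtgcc
Grin2a: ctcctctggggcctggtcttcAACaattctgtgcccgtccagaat
Grin2c: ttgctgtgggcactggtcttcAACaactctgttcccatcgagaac
Grin2d: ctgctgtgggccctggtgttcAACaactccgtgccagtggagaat
Over the windows printed, the AMPA subunits shared 80.0% to 93.3% of bases, the GluN2 subunits 77.8% to 80.0%, and an AMPA and an NMDA subunit 17.8% to 44.4%. Grin1 did not group with the GluN2 subunits by these windows. It shared 37.8% to 40.0% with them and 40.0% to 44.4% with the AMPA subunits. No such window was sought for Grin3a, which spans chr4:49661611-49845744 on the minus strand. Counts per gene hold no information on editing of the Gria2 codon, and reads shared between these paralogs could have been split by the estimation of counts.

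**Figure D1:**
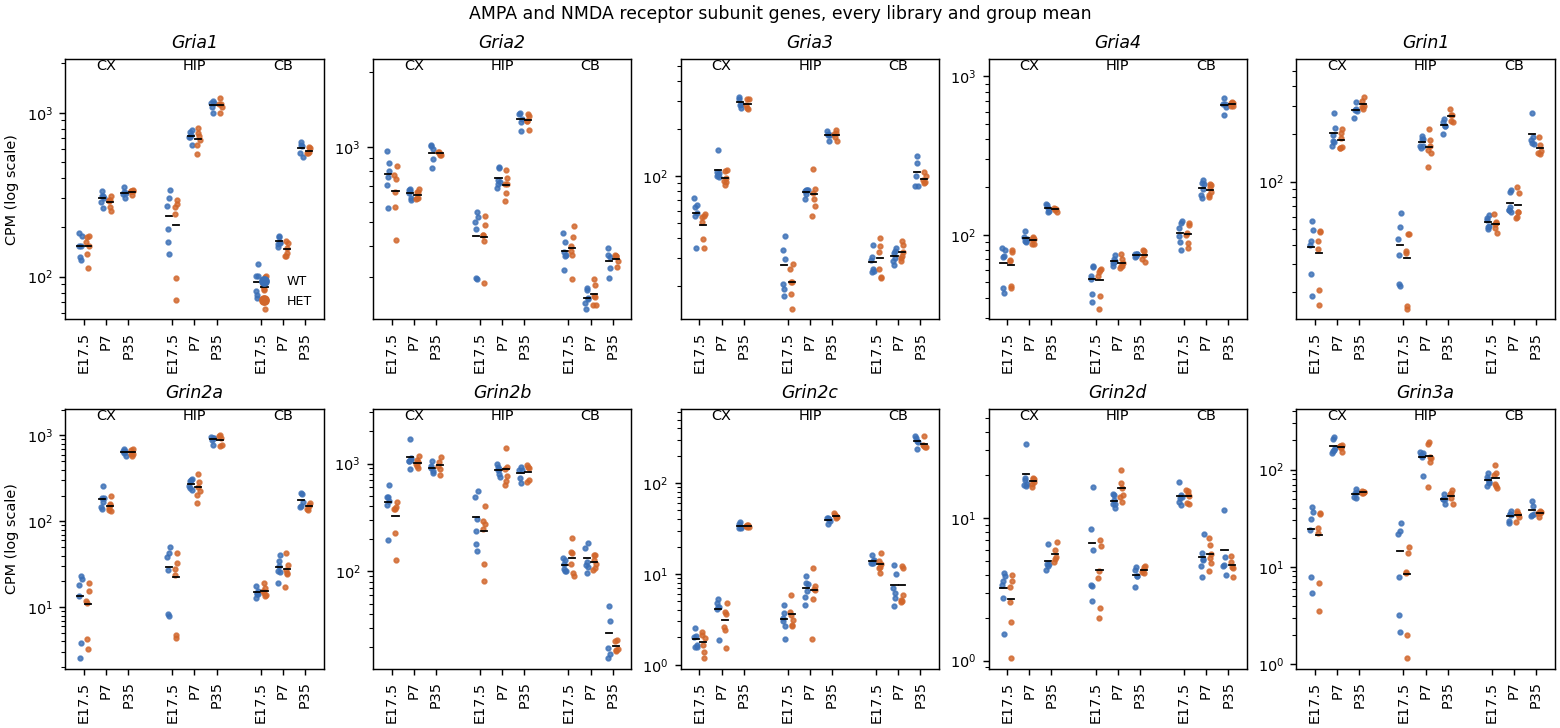
Level of each subunit transcript in CPM (log axis) in every library, by region and period, with WT in blue, HET in orange and a bar at each group mean. Reading across a panel shows the developmental change, and the colours overlap in all of the 90 pairs of groups but 1, Grin2c in adult HIP. The share of all genes whose genotypes do not overlap was not computed, so nothing is drawn from this count.

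All 10 members passed the filter on low counts in every dataset, and development moved most of them. Groups were compared with edgeR's quasi-likelihood test over all genes tested, and calls were made where the p-value after Benjamini-Hochberg adjustment was at most 0.1. From E17.5 to P7 in WT CX, 9 members rose and 1 fell, where 41.3% of all genes tested rose and 40.6% fell. From P7 to P35 in CX 6 rose and 2 fell (33.2% and 34.5% of all genes). In HIP 10 rose and 0 fell from E17.5 to P7 (38.9% and 39.1%), and 5 rose and 2 fell from P7 to P35 (31.3% and 31.5%). In CB 4 rose and 4 fell from E17.5 to P7 (35.7% and 35.5%), whereas 8 rose and 1 fell from P7 to P35 (40% and 39.4%). Both steps use the same P7 libraries. The per-sample levels in the plot of every library are given below by subunit family, for WT mice unless HET is named, with the lowest, median and highest of 6 mice at E17.5 and P7 and each of the 5 adults.

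Gria1 encodes GluA1, the subunit that carries much of the activity-dependent delivery of AMPA receptors in hippocampal pyramidal cells, and it was the AMPA member that differed most between adult HIP and CX. In HIP its levels were 137, 231 and 336 CPM at E17.5, 633, 720 and 785 CPM at P7, and 1152, 1090, 1181, 990 and 1151 CPM at P35. These groups did not overlap, and the log2 changes were 1.62 ± 0.17 (SE; 3.07-fold, adjusted p = 1.27e-07) and 0.65 ± 0.17 (adjusted p = 0.00389). In CX the levels were 127, 154 and 184 CPM at E17.5, 262, 305 and 334 CPM at P7, and 320, 351, 327, 300 and 324 CPM at P35. CX libraries of P7 and P35 overlapped, with a log2 change of 0.15 ± 0.09 that was not called (adjusted p = 0.175). In CB the level was 74.3, 91.3 and 120 CPM at E17.5 and 153, 162 and 176 CPM at P7, and the adults measured 571, 635, 663, 628 and 534 CPM. The adult CB values all lay above every earlier one, and the rise from P7 was 3.73-fold (log2 1.90 ± 0.10, adjusted p = 3.40e-12).

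Gria2 encodes GluA2, the calcium-limiting subunit, and was the only AMPA member that fell at any step. In CX the levels were 569, 778 and 962 CPM at E17.5, 612, 661 and 682 CPM at P7, and 1024, 1011, 822, 978 and 897 CPM at P35. The first 2 groups overlapped although the log2 change of -0.30 ± 0.10 was called (adjusted p = 0.00959), and the adults lay above all P7 libraries (log2 0.57 ± 0.10, adjusted p = 8.55e-05). In CB Gria2 measured 320, 373 and 451 CPM at E17.5, 223, 246 and 272 CPM at P7, and 368, 392, 297, 327 and 360 CPM at P35. P7 was therefore the low point in CB, without overlap with either neighbour (log2 -0.64 ± 0.08 and 0.51 ± 0.08, adjusted p = 1.57e-06 and 2.53e-05). In HIP the transcript climbed at both steps, from 295, 483 and 546 CPM to 687, 730 and 833 CPM and then to 1361, 1375, 1264, 1166 and 1295 CPM. The hippocampal groups did not overlap (log2 0.77 ± 0.13 and 0.81 ± 0.14).

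Gria3 encodes GluA3, which pairs with GluA2 in mature receptors. In CX it measured 35.02, 61.1 and 71.9 CPM at E17.5, 98.7, 102.4 and 146 CPM at P7, and 310, 317, 283, 287 and 271 CPM at P35. Each period lay above the one before, and the step to the adult was 2.75-fold (log2 1.46 ± 0.14, adjusted p = 3.45e-08). In HIP the log2 changes were 1.53 ± 0.16 and 1.23 ± 0.16, again without overlap. In CB the E17.5 libraries (24.4 to 36.3 CPM) and the P7 libraries (27.3 to 34.7 CPM) overlapped and the change was not called (log2 0.11 ± 0.12, adjusted p = 0.434). Adult CB values of 86.4, 99.2, 134, 121 and 86.8 CPM were all above those (3.43-fold, log2 1.78 ± 0.12, adjusted p = 1.27e-10).

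Gria4 encodes GluA4, a fast subunit known from cerebellar granule cells and glia and from parvalbumin interneurons. Its CB levels were 79.8, 104 and 122 CPM at E17.5, 170, 202 and 221 CPM at P7, and 666, 736, 571, 673 and 641 CPM at P35. No CB group overlapped another, with log2 changes of 0.92 ± 0.10 and 1.75 ± 0.10 (3.36-fold, adjusted p = 1.24e-11). In adult HIP it measured 72.2, 76.0, 73.3, 75.1 and 75.2 CPM, overlapping the P7 range of 63.4 to 74.3 CPM (log2 0.15 ± 0.10, adjusted p = 0.236). In CX it rose from 72.9 CPM (median) at E17.5 to 93.3 at P7 and to 140 to 157 CPM in adults, with log2 changes of 0.47 ± 0.13 and 0.67 ± 0.14.

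**Figure D2:**
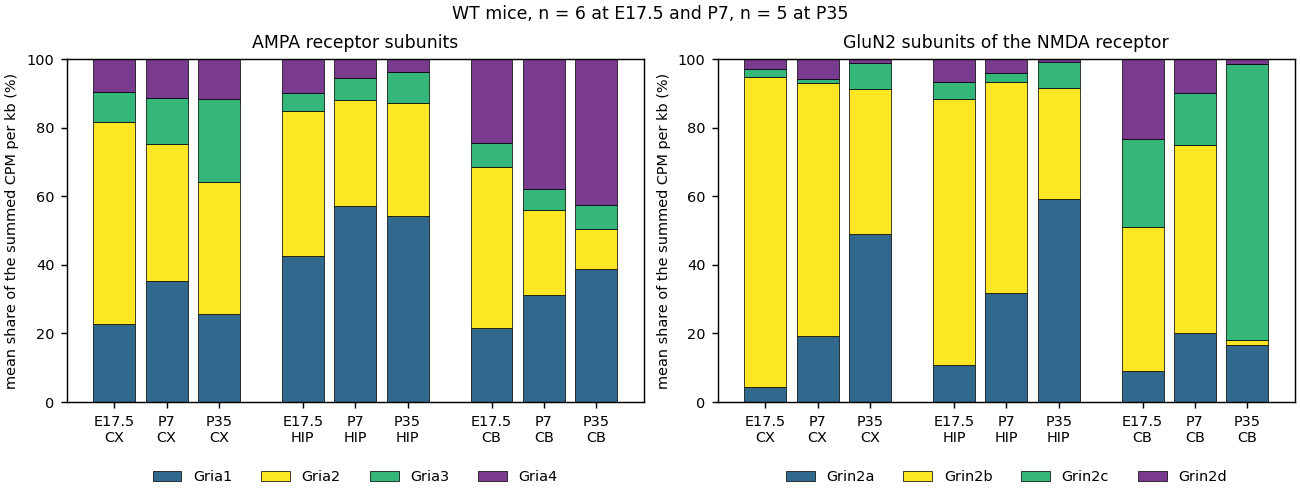
Share of each subunit in its family (stacked percent of CPM per kilobase, mean of WT mice) for the 4 AMPA subunits on the left and the 4 GluN2 subunits on the right, by region and period. Grin2b gives way to Grin2a in CX and HIP and to Grin2c in CB, while Gria2 shrinks from 46.9% to 11.6% of the AMPA total in CB on this length scale (63.6% to 20.7% per kb of coding sequence).

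Levels of different genes were compared per length, as CPM per kilobase (kb) of the longest principal coding transcript. On that scale the summed AMPA level in WT rose in CX from 127 through 157 to 236 CPM per kb and in CB from 78.8 through 97.1 to 289 CPM per kb. The makeup of that sum moved away from Gria2: its share fell in CX from 58.8% ± 3.18 (SD, n = 6) at E17.5 to 40.0% at P7 and 38.7% in adults, and in CB from 46.9% through 24.6% to 11.6%. Per kb of coding sequence alone the CX share was 73.8%, 56.9% and 55.6%, and the CB share was 63.6%, 39.3% and 20.7%. Gria4 took the largest adult share in CB (42.5%, after 24.4% and 37.9%), ahead of Gria1 (38.8%). In HIP Gria1 was level with Gria2 at E17.5 (42.5% and 42.4%) and led at P7 and P35 (57.1% against 30.95%, and 54.3% against 32.8%). Gria3 grew in CX from 8.79% to 24.0%. The hippocampal order depends on the length used, since per kb of coding sequence alone Gria2 led Gria1 at each period (59.2% against 30.2%, 47.0% against 43.9%, and 49.2% against 41.2%).

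Ratios of counts within a library need no length. The log2 ratio of Gria2 to Gria1 in CB went from 2.06 at E17.5 through 0.60 at P7 to -0.80 in adults, so that Gria1 reads passed Gria2 reads there. In HIP it was 0.94, 0.06 and 0.22, and in CX 2.32, 1.12 and 1.54. The log2 ratio of Gria4 to Gria2 rose in CB from -1.90 through -0.33 to 0.92 and fell in HIP from -3.05 through -3.46 to -4.12. Gria3 gained on Gria2 at all 6 steps. Of 48 developmental comparisons of 8 ratios in WT, 45 passed an exact permutation test at a Benjamini-Hochberg adjusted p of at most 0.1.

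Grin1, whose product GluN1 is in every NMDA receptor, rose with the first postnatal week in CX and HIP and later in CB. In CX it measured 18.8, 40.7 and 56.3 CPM at E17.5, 168, 190 and 271 CPM at P7, and 252, 284, 320, 289 and 279 CPM at P35. The embryonic libraries stood apart from all later ones (5.05-fold, log2 2.34 ± 0.20, adjusted p = 6.92e-09), and P7 and P35 overlapped with a smaller called change (log2 0.53 ± 0.20, adjusted p = 0.0297). In HIP the changes were 2.16 ± 0.20, called, and 0.38 ± 0.20, not called (adjusted p = 0.113). In CB Grin1 went from 50.4, 54.5 and 61.3 CPM through 64.2, 67.9 and 87.9 CPM to 183, 175, 272, 192 and 173 CPM. The later cerebellar step was the larger in size (2.73-fold, log2 1.45 ± 0.11, against 0.40 ± 0.11).

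Grin2a, which encodes the fast-closing GluN2A of mature synapses, had the largest rise of any member from E17.5 to P7 in CX, and rose in HIP about as much as Grin3a. In CX it was 2.60, 15.7 and 23.02 CPM at E17.5, 141, 178 and 258 CPM at P7, and 659, 696, 632, 657 and 572 CPM at P35. No group overlapped another, and the steps were 12.8-fold (log2 3.68 ± 0.39, adjusted p = 1.00e-07) and 3.63-fold (log2 1.86 ± 0.37, adjusted p = 0.000262). In HIP it was 7.94, 32.6 and 50.1 CPM, then 229, 278 and 312 CPM, then 964, 878, 943, 768 and 942 CPM. That was a rise of 9.34-fold followed by one of 3.33-fold, without overlap. In CB the values were 13.0, 14.5 and 17.6 CPM, then 19.3, 28.3 and 41.0 CPM, then 149, 149, 212, 209 and 168 CPM. There the later step was 6.04-fold (log2 2.59 ± 0.15, adjusted p = 1.38e-11) and the earlier one 1.97-fold.

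Grin2b encodes GluN2B, the slow subunit of young forebrain synapses. In CX it measured 194, 466 and 633 CPM at E17.5, 896, 1067 and 1705 CPM at P7, and 911, 943, 1048, 856 and 811 CPM at P35. It rose 2.52-fold to P7 without overlap, and the adult values overlapped those of P7 (log2 -0.30 ± 0.21, adjusted p = 0.217). In HIP the changes were 1.43 ± 0.25, called, and -0.08 ± 0.25, not called (adjusted p = 0.823). CB differed: 101, 110 and 132 CPM at E17.5 and 95.6, 118 and 183 CPM at P7 were followed by adult values of 15.8, 19.2, 47.4, 34.6 and 17.1 CPM. Every adult CB library lay below every younger one, and the fall from P7 was 4.89-fold (log2 -2.29 ± 0.26, adjusted p = 1.60e-07).

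Grin2c encodes GluN2C and made the largest change of any member. In CB it measured 13.1, 13.6 and 16.3 CPM at E17.5 and 4.46, 6.54 and 12.6 CPM at P7, and then 331, 311, 294, 240 and 281 CPM in adults. The E17.5 and P7 groups did not overlap (log2 -0.90 ± 0.19, adjusted p = 0.000324), and the rise from P7 to adult was 38.7-fold (log2 5.28 ± 0.21, adjusted p = 4.13e-14). In CX Grin2c stayed at 1.55 to 5.31 CPM through P7 and reached 31.6, 35.1, 37.2, 32.4 and 32.6 CPM in adults (8.40-fold). In HIP adults measured 41.0, 35.3, 40.8, 40.0 and 37.8 CPM, above a P7 range of 4.60 to 9.38 CPM (5.68-fold).
The 250 bases before the Grin2c start are printed because this member changed most. They are chr11:115267244-115267493 on the minus strand, from RefSeq promoter records of GRCm38.p6, and capitals mark matches to GGGCGG, with both strands searched and overlapping matches counted.
Grin2c: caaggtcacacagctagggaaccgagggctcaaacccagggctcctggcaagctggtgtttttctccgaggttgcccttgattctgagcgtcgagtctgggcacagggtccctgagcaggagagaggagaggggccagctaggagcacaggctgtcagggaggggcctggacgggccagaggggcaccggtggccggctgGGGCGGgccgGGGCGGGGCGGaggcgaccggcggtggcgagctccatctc
The window held 3 matches. Among the 5 members with a promoter record (Gria2, Gria4, Grin1, Grin2c and Grin2d), the other 4 held none, and 32.7% of 32851 promoter windows held at least 1. A match describes letters in a window and not a bound site.

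Grin2d encodes GluN2D, and its P7 maximum was limited to the forebrain regions. In CX it measured 1.54, 3.49 and 4.09 CPM at E17.5, 16.7, 17.9 and 32.8 CPM at P7, and 4.32, 4.79, 6.59, 4.61 and 4.80 CPM at P35. No group overlapped another, and it rose 6.07-fold (log2 2.60 ± 0.21, adjusted p = 2.58e-09) and then fell 3.93-fold (log2 -1.98 ± 0.22, adjusted p = 2.89e-07). In HIP the log2 changes were 0.98 ± 0.32 and -1.70 ± 0.35, both called. In CB the highest period was E17.5, at 12.3, 13.96 and 17.9 CPM, and P7 values of 3.86, 5.10 and 7.78 CPM lay below them (log2 -1.42 ± 0.21). Adult CB values of 4.63, 4.67, 11.4, 5.38 and 4.02 CPM overlapped those of P7 (log2 0.17 ± 0.23, adjusted p = 0.509). Grin2d overlaps Kdelr1 on the opposite strand, a gene measured at up to 49.6 CPM, and the libraries were stranded.

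Grin3a encodes GluN3A, a subunit that lowers calcium entry in young synapses. In CX it was 5.42, 27.4 and 41.4 CPM at E17.5, 149, 163 and 216 CPM at P7, and 52.7, 57.9, 62.7, 50.9 and 59.4 CPM at P35. It rose 6.95-fold and fell 3.01-fold, without overlap at either step (log2 2.80 ± 0.36 and -1.59 ± 0.36, adjusted p = 1.03e-06 and 0.000930). In HIP it was 2.13, 14.7 and 28.2 CPM, then 86.7, 142 and 152 CPM, then 49.9, 49.4, 56.4, 44.7 and 50.4 CPM. The hippocampal rise was 9.23-fold and the fall 2.63-fold. In CB the order was reversed at the first step, with 68.3, 77.7 and 91.5 CPM at E17.5 falling to 28.5, 34.2 and 37.7 CPM at P7 (log2 -1.26 ± 0.10, adjusted p = 2.14e-09). The adult CB change of 0.22 ± 0.10 from P7 was called (adjusted p = 0.0577) but lost without the mice numbered 3, 4 or 5 (0.15, 0.20 and 0.18) and under upper-quartile scaling (0.17) or no filter (0.19). The related Grin3b, not a member, had group means of at most 0.308 CPM except in adult CB (1.002 CPM in WT and 1.08 CPM in HET).

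Grin2d and Grin3a thus had their highest mean at P7 in CX and HIP and at E17.5 in CB, while Grin2a and Grin2c had theirs in adults in all 3 regions.

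**Figure D3:**
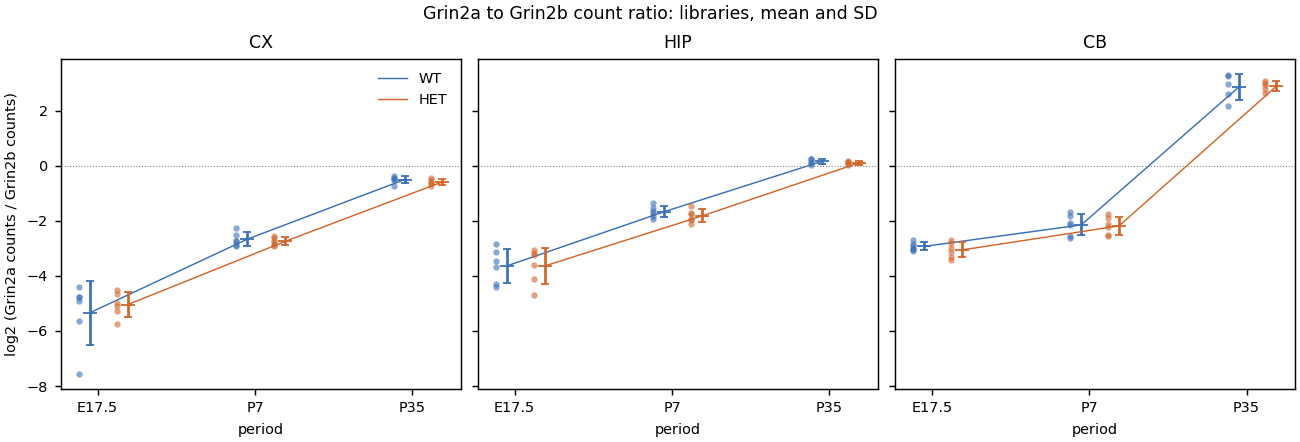
Log2 ratio of Grin2a to Grin2b counts by period in each region, with a point for each mouse (WT and HET) and mean ± SD. WT means run from -5.34 to -0.50 in CX, from -3.64 to 0.15 in HIP and from -2.93 to 2.85 in CB, where the steps are 0.78 and 5.00.

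The ratio of Grin2a to Grin2b counts rose at every step in every region. Its WT mean log2 ratio in CX went from -5.34 ± 1.16 (SD, n = 6) through -2.67 ± 0.25 to -0.50 ± 0.13 (n = 5), in HIP from -3.64 ± 0.62 through -1.67 ± 0.20 to 0.15 ± 0.09, and in CB from -2.93 ± 0.15 through -2.15 ± 0.38 to 2.85 ± 0.47. The adult mice measured -0.47, -0.44, -0.73, -0.38 and -0.50 in CX, 0.15, 0.25, 0.03, 0.22 and 0.10 in HIP, and 3.24, 2.96, 2.16, 2.60 and 3.29 in CB. Adult CX therefore still had more Grin2b than Grin2a reads in all 5 mice, adult HIP slightly more Grin2a reads in all 5, and adult CB several times more. The groups did not overlap at any of the 6 steps, and each gave the smallest p that an exact 2-sided permutation test allows (0.00216 for 6 against 6 mice and 0.00433 for 6 against 5, adjusted 0.00495). The step sizes were 2.67 and 2.16 in CX, 1.97 and 1.82 in HIP, and 0.78 and 5.00 in CB. In HET they were 2.29 and 2.16, 1.82 and 1.93, and 0.87 and 5.07.

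Other NMDA ratios showed when each region changed. Grin2c to Grin2b went in CB from -3.01 through -4.16 to 3.57 on the log2 scale, so adult CB had more Grin2c than Grin2b reads. Grin3a to Grin1 fell steadily in CB (0.51, -1.14 and -2.37) and peaked at P7 in CX (-0.93, -0.21 and -2.33) and HIP (-1.92, -0.42 and -2.18). Grin2d to Grin2b peaked at P7 in CX (-7.08, -5.85 and -7.51). The AMPA to NMDA comparison of Gria2 with Grin1 in CX was 4.40 at E17.5, 1.71 at P7 and 1.73 in adults, and the later difference of 0.02 was not called (exact permutation p = 0.879).

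Per kb of principal transcript, the summed NMDA level in WT was 32.7, 136 and 165 CPM per kb in CX, 28.5, 119 and 164 in HIP and 34.8, 31.8 and 126 in CB. Among GluN2 subunits, Grin2b made up 90.4% of the CX sum at E17.5, 73.8% at P7 and 42.3% in adults, and Grin2a 4.40%, 19.2% and 49.0%. In HIP Grin2a grew from 10.9% through 31.9% to 59.2%. In CB Grin2b held 42.0% and 54.6% at the younger periods and 1.52% in adults, where Grin2c held 80.4% and Grin2a 16.6%. The adult CX order turned with the length used, as Grin2b had 56.7% and Grin2a 40.5% per kb of coding sequence, while Grin2c still led adult CB with 62.1%.

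HET mice were tested over the same steps. Of the 10 members, 9 were called at each step in CX (85.3% and 73.1% of all genes tested in HET), 10 and 8 in HIP (79.2% and 65%), and 8 and 9 in CB (75.1% and 79.3%). In HET, Grin2a in CX rose by 3.76 ± 0.31 and 2.08 ± 0.29 on the log2 scale. Grin2c in CB changed by -0.80 ± 0.20 and then rose 36.3-fold, and Grin2b in CB changed by -0.13 ± 0.15 (not called) and -2.59 ± 0.18. The cortical fall of Gria2 from E17.5 to P7 was not called in HET (log2 -0.11 ± 0.11, adjusted p = 0.392). No member had a called difference between genotypes in its change across periods, in CX, HIP or CB, where 0% of all genes were called in each of the 3 regions, and 0 members had an unadjusted p under 0.05 in edgeR's quasi-likelihood test.

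Partner genes of the receptors were tested over the same steps in WT. Of 14 genes of AMPA receptor auxiliary subunits, which traffic and slow the channel, 11 rose and 0 fell in CX from E17.5 to P7, where 41.3% of all genes rose and 40.6% fell. From P7 to P35 in CX 5 rose and 5 fell, near the shares of all genes (33.2% and 34.5%). Cacng3 rose in CX (log2 2.77 ± 0.16) and Cacng8 in HIP (2.45 ± 0.17) in the first week, and Cacng4 fell from P7 to adult in CX (-2.61 ± 0.13), HIP (-2.06 ± 0.23) and CB (-1.57 ± 0.16). Shisa6 fell in CX (-2.39 ± 0.30) and rose in CB (2.65 ± 0.31) at that step. All 6 genes of secreted or transmembrane AMPA receptor partners rose in CX and in HIP from E17.5 to P7 (38.9% of all genes rose in HIP), with Nptxr, the neuronal pentraxin receptor, at 2.75 ± 0.21 and 2.91 ± 0.20. In CB 1 of those 6 rose and 4 fell at that step (35.7% and 35.5% of all genes), and Nptx1 then rose by 4.00 ± 0.14 to the adult.
Of 11 scaffold and trafficking genes, 9 rose and 2 fell in CX from E17.5 to P7 (41.3% and 40.6% of all genes). In CB 4 rose and 5 fell at that step, about the shares of all genes (35.7% and 35.5%), and 9 rose and 1 fell from P7 to P35 (40% and 39.4%). Dlg1, which encodes SAP97, rose from P7 to adult in CX (1.75 ± 0.09), HIP (1.304 ± 0.09) and CB (2.20 ± 0.05), and Grip1 fell in CX (-1.35 ± 0.05) and CB (-1.75 ± 0.07). Adarb1, the editing enzyme that recodes the Gria2 pore codon, rose from P7 to adult in CX (0.81 ± 0.11), HIP (1.09 ± 0.09) and CB (1.61 ± 0.09). Dao, which degrades the NMDA receptor co-agonist D-serine, rose in CB by 2.11 ± 0.32 to P7 and then by 7.32 ± 0.17, the step at which Grin2c rose there.

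Regions of the same mice were compared with the mouse as a block. At E17.5, 3 members were higher and 4 lower in CX than in HIP (46.5% of all genes were called in either direction), 4 higher and 5 lower in CX than in CB (61.7%), and 2 higher and 5 lower in HIP than in CB (49.5%). At P7 the counts were 6 and 4 (57%), 8 and 2 (82.9%), and 8 and 1 (78.2%). In adults they were 4 and 4 (51.5%), 6 and 3 (75.4%), and 7 and 3 (75.1%). In embryonic CB the split was near even against CX, with 5 members above and 4 below, and 5 were above HIP and 2 below. Without the embryos whose names begin with S3, described below, 1 call was lost and 3 were added among 30 such comparisons at E17.5. From P7 most members were higher in CX and HIP than in CB. The shares of all genes given here are not split by direction.

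Gria1 was lower in CX than in HIP at each period, and the log2 difference was -0.57 ± 0.13, -1.25 ± 0.05 and -1.76 ± 0.07 (3.39-fold in adults, adjusted p = 1.01e-09). The CX and HIP libraries of Gria1 overlapped at E17.5 and not afterwards. Gria4 was higher in CB than elsewhere at each period, reaching 4.41-fold over CX (log2 difference of CX to CB -2.14 ± 0.05) and 8.88-fold over HIP in adults. Adult Grin2b was 36.1-fold higher in CX than in CB (5.17 ± 0.25, adjusted p = 1.17e-09) and 31.9-fold higher in HIP. Adult Grin2c was 8.56-fold lower in CX than in CB (-3.10 ± 0.08) and 7.50-fold lower in HIP. Those adult groups of Gria4, Grin2b and Grin2c did not overlap.

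At E17.5 the order differed for the members of young synapses. Grin3a was 4.51-fold lower in CX than in CB (-2.17 ± 0.48, adjusted p = 0.00185) and 7.99-fold lower in HIP (-3.00 ± 0.51). Without the embryos whose names begin with S3, described below, these were -1.22 ± 0.27 (adjusted p = 0.00430) and -1.98 ± 0.28 (adjusted p = 0.000442), both still called. At P7 it was 5.05-fold higher in CX (2.34 ± 0.12). Grin2d moved the same way, from -2.25 ± 0.29 to 1.84 ± 0.15 for CX against CB. Between CX and HIP the test was not passed by Grin1 at E17.5 (log2 -0.04 ± 0.17, adjusted p = 0.862) or by Grin2b in adults (0.18 ± 0.21, adjusted p = 0.52598). Of 72 comparisons of the 8 ratios between regions, 61 passed an exact paired permutation test at an adjusted p of at most 0.1, where the smallest p is 0.03125 with 6 mice and 0.0625 with 5.

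In Cul3+/- mice no subunit transcript was called in any dataset. The counts of members called were 0 of 10 in E17.5 CX, HIP and CB, against 0.00603%, 0.00586% and 0.00568% of all genes, 0 of 10 at P7 in CX, HIP and CB against 0.00566%, 0.00563% and 0.0057%, and 0 of 10 in adult CX, HIP and CB against 0.00569%, 0.00584% and 0.00584%. Each of these shares is 1 gene, Cul3 itself. The study, whose model also held factors of unwanted variation and sex, reported many more genes at the same adjusted cutoff. Of the 90 tests of members, 7 had an unadjusted p under 0.05, where 1.67% to 14.4% of all genes did so by dataset, with 2 of the 7 in adult CB (14.4%) and 2 in adult HIP (6.25%). In E17.5 CX the fit blocked by replicate number put 6 of 10 members under 0.05 unadjusted (Gria2, Gria3, Grin1, Grin2b, Grin2d and Grin3a) and called none of them. After adjustment it called 0.331% of all genes. The same kind of fit put 5 of 10 under 0.05 in E17.5 HIP and 0 to 2 of 10 in the other datasets. The share of all genes under 0.05 in these blocked fits was not computed, so nothing is drawn from these counts. DESeq2 called 0 members too, with a lowest adjusted p of 0.251. It called 0.00603%, 0.00586% and 0.0114% of all genes in E17.5 CX, HIP and CB, 0.017%, 0.0338% and 0.0171% at P7, and 0.0228%, 0.0175% and 1.27% (218 genes in CB) in adults. Of the auxiliary, extracellular, scaffold and editing partner genes 0 were called in any dataset by edgeR's test, and 0 to 3 genes of a list had an unadjusted p under 0.05 in a dataset.

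**Figure D4:**
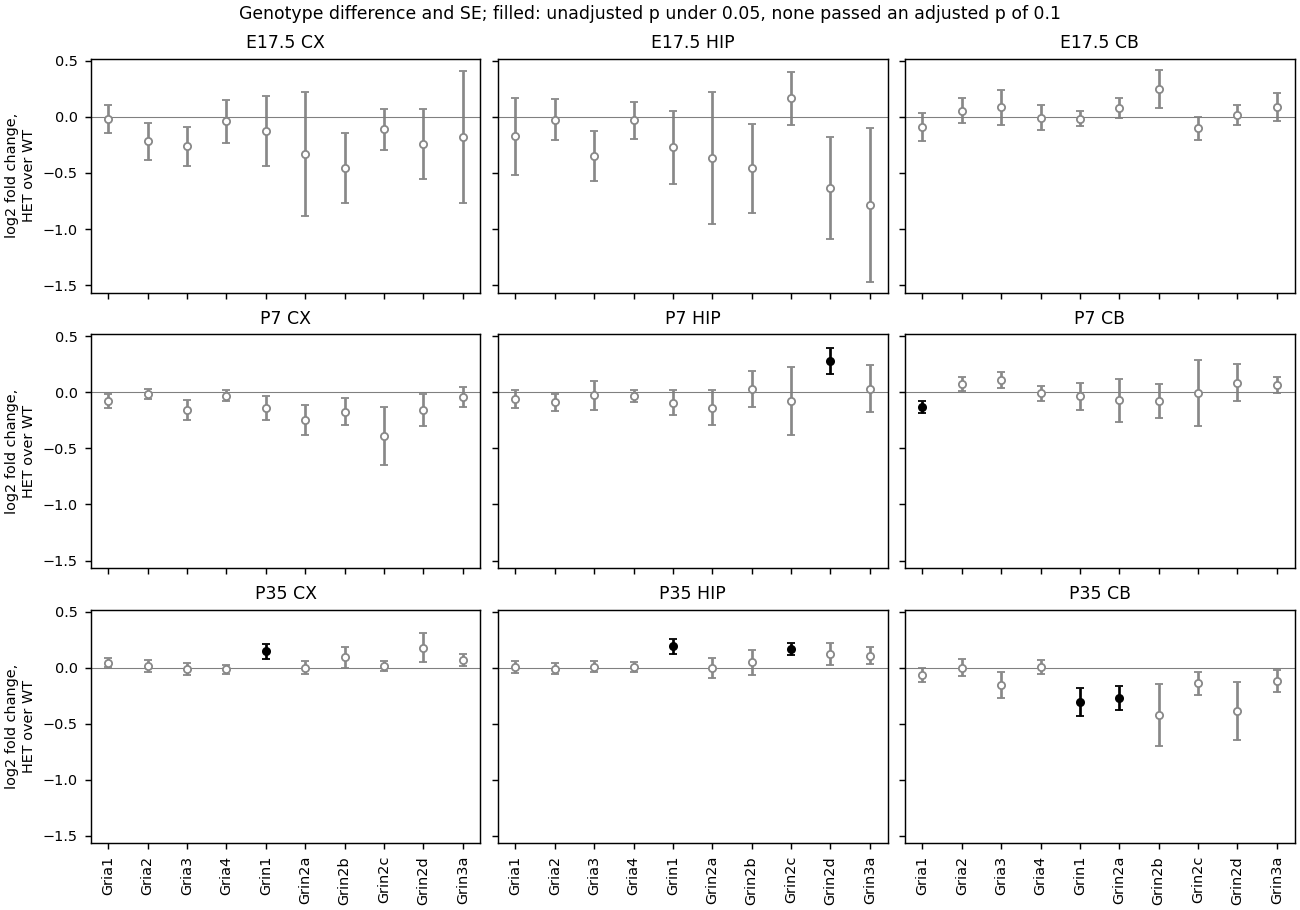
Log2 change of each subunit in HET relative to WT with its standard error, in the 9 datasets, with filled points where the unadjusted p is under 0.05. The values lie between -0.78 and 0.28, all 10 members are below 0 in E17.5 CX and P7 CX, and none is called after adjustment.

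Grin2c in adult HIP was the only member and dataset whose genotypes did not overlap, with WT at 41.0, 35.3, 40.8, 40.0 and 37.8 CPM and HET at 46.3, 45.1, 41.1, 43.3 and 42.7 CPM. The nearest libraries were 41.0 and 41.1 CPM, and the log2 change was 0.17 ± 0.05 (unadjusted p under 0.05, adjusted p = 0.796 in edgeR's test). How many of all genes separated the genotypes in this way was not computed, so nothing is drawn from the lack of overlap. Choroid plexus markers, summed, were 22.97, 60.9, 2224, 1547 and 32.8 CPM in the WT and 31.6 to 266 CPM in the HET libraries of adult HIP, and their part in this difference was not tested.

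Grin1 differed in direction between adult regions. In adult HIP WT measured 239, 199, 249, 226 and 226 CPM and HET 289, 243, 262, 262 and 239 CPM, and in adult CB WT measured 183, 175, 272, 192 and 173 CPM and HET 153, 191, 149, 169 and 157 CPM. Both pairs of groups overlapped. The log2 changes were 0.19 ± 0.07 in HIP (adjusted p = 0.796), 0.14 ± 0.06 in CX (adjusted p = 0.997) and -0.30 ± 0.12 in CB (adjusted p = 0.343) by edgeR's quasi-likelihood test. The test of genotype by region in adults had its lowest member p for Grin1, which was not called (adjusted p = 0.255, edgeR), and 0.00525% of all genes were called there, with 0% at E17.5 and 0% at P7. The value of 272 CPM belongs to WT adult CB replicate 3, whose summed forebrain glutamatergic markers were 781 CPM against 556 to 597 CPM in the other WT mice, and without it the CB change was -0.17. In adult HIP both Grin1 and Grin2c were called in a fit with 5 factors of unwanted variation estimated from replicates (RUVs; adjusted p = 0.00255 and 0.0693), and Grin1 with 3 factors (adjusted p = 0.0644). The fits with factors also used upper-quartile scaling and edgeR's likelihood ratio test in place of TMM and the quasi-likelihood test. Those fits called 2.77% and 1.14% of all 17123 genes tested there, 475 and 195 genes, in place of 1.

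Grin2a in adult CB was 149, 149, 212, 209 and 168 CPM in WT and 141, 137, 150, 157 and 162 CPM in HET, overlapping groups with a log2 change of -0.27 ± 0.11 (adjusted p = 0.338). Grin2d in P7 HIP had 11.7, 13.0 and 14.7 CPM as lowest, median and highest in WT and 13.0, 15.3 and 21.6 CPM in HET (log2 0.28 ± 0.12, adjusted p = 0.833). Gria1 in P7 CB had 153, 162 and 176 CPM in WT and 134, 144 and 166 CPM in HET (-0.13 ± 0.05, adjusted p = 0.978). None of the 3 separated the genotypes. For the ratios, 0 of 72 genotype comparisons were called by the exact permutation test. The smallest p that this test allows is 0.00216 at E17.5 and P7 and 0.00794 in adults. After adjustment over 72 comparisons a single ratio at that limit could not be called, so nothing is drawn from this count. The smallest p seen was 0.00866, for Grin2d to Grin2b in P7 HIP (difference 0.29 ± 0.08). Next was 0.0130, for Gria2 to Gria1 in P7 CB (0.20 ± 0.07). Both had an adjusted p of 0.468. Differences of the Grin2a to Grin2b log2 ratio lay between -0.16 and 0.29.

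In E17.5 CX and P7 CX all 10 members had a log2 change below 0, with medians of -0.20 and -0.15, and the median over all genes lay between -0.00278 and 0.00692 in the 9 datasets. In E17.5 HIP 9 of 10 were below 0 (median -0.31), and in adult CB 8 of 10 (median -0.15). Adult HIP was the opposite, with 8 of 10 above 0. Members within a dataset share their libraries and are not independent. The largest embryonic value was Grin3a in HIP (-0.78 ± 0.69, adjusted p = 0.941), and Grin2b was at -0.46 in both CX and HIP. Same-numbered WT and HET mice deviated together in E17.5 CX, and in a fit blocked by replicate number Grin2b was at -0.49 ± 0.13 (adjusted p = 0.182) and Gria2 at -0.24 ± 0.06 (adjusted p = 0.179), still not called.

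**Figure D5:**
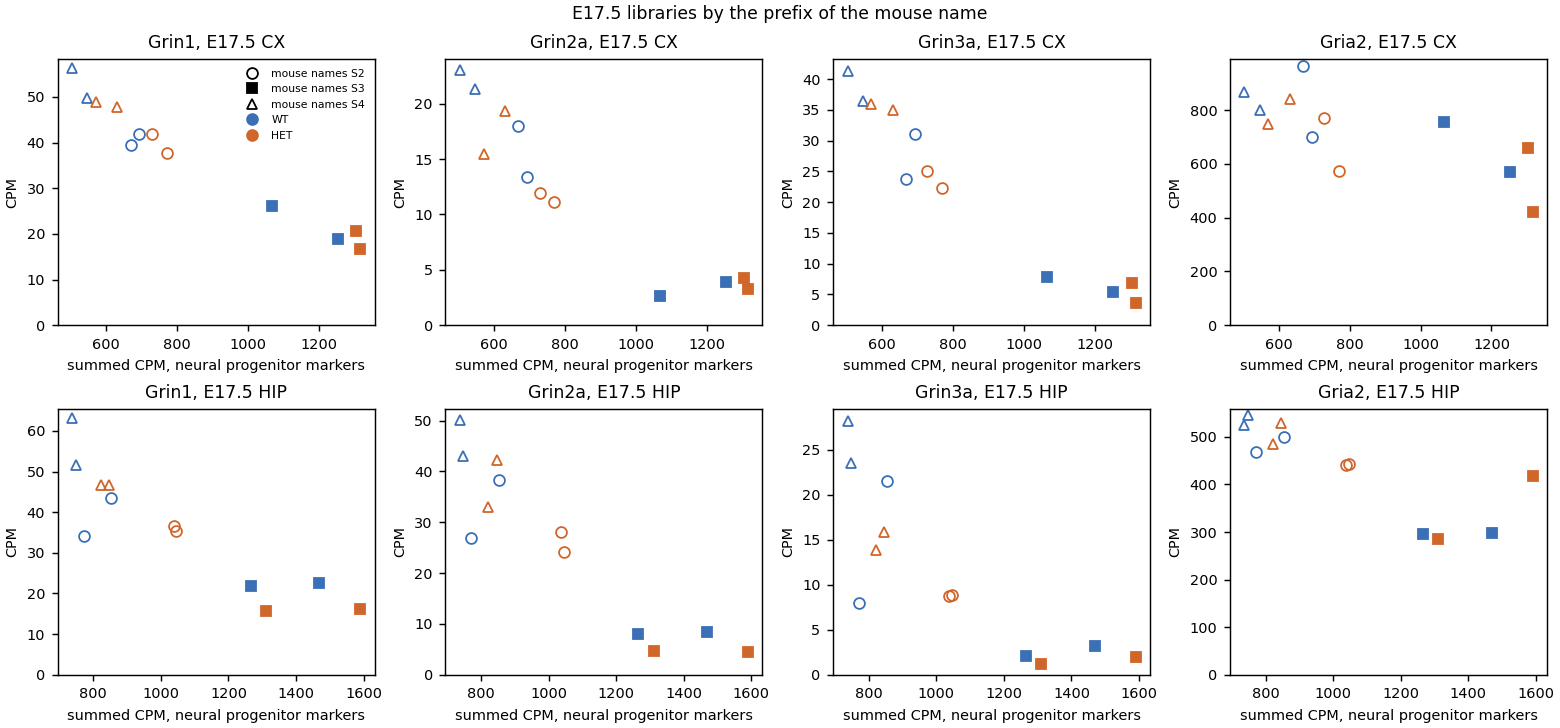
CPM of Grin1, Grin2a, Grin3a and Gria2 in each E17.5 CX and HIP library against the summed CPM of neural progenitor markers, with symbols for sample names that begin with S2, S3 or S4. The 4 S3 libraries of each region have the highest progenitor sums and the lowest Grin1, Grin2a and Grin3a levels in both genotypes.

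The spread of embryonic levels went with the names of the mice. E17.5 sample names begin with S2, S3 or S4, and the 4 mice named S3 (replicates 3 and 4 of each genotype) lay below all of the other 8 for 5 of 10 members in CX (Gria1, Gria4, Grin1, Grin2a and Grin3a), for 8 of 10 in HIP and for 1 of 10 in CB (Gria4). Of all genes tested, 12.2% lay so in CX, 9.61% in HIP and 5.45% in CB. Mean Grin2a was 3.49 CPM in S3 and 16.7 CPM in the other mice in CX, and 6.39 and 35.7 CPM in HIP. Grin3a was 5.93 and 31.4 CPM in CX and 2.13 and 16.1 CPM in HIP, a ratio of 7.53. In CB the Grin3a ratio was 0.787, with the S3 mice higher on average. Summed neural progenitor markers were 1067 to 1316 CPM in S3 against 504 to 770 CPM in the other CX libraries, and 1266 to 1590 against 738 to 1045 CPM in HIP. Summed neuronal markers in CX were 2651 to 2916 CPM in S3 against 3290 to 3832 CPM. They overlapped in HIP (1618 to 2385 against 2270 to 2928 CPM) and in CB (3165 to 3630 against 2986 to 3669 CPM). Summed forebrain glutamatergic neuron markers in CX went the other way, at 1607 to 1848 CPM in S3 against 1299 to 1598 CPM. What the prefix stands for is not given in the labels, and the part of these marker sums in the member levels was not tested.
With the S3 mice left out, 57 of the 60 developmental values of members were called in place of 52, 0 members were called between genotypes, and Grin1 was no longer called between embryonic HIP and CB (log2 -0.28). The rise of Grin2a in CX from E17.5 to P7 was then 3.21 on the log2 scale, and that of Grin3a in HIP 2.73. Within S2, S3 and S4 the log2 HET to WT ratio of Grin3a in HIP was -0.74, -0.75 and -0.80, and that of Grin2b in HIP -0.43, -0.76 and -0.35, each from 2 mice per genotype. In a fit blocked by prefix Grin3a in HIP was at -0.77 ± 0.21 (adjusted p = 0.502) and Grin2b at -0.52 ± 0.20 (adjusted p = 0.514), neither called by edgeR's test.

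Over the 9 WT group means, the members were most alike among themselves for Grin1 and Grin2a (r = 0.95) and least alike for Gria4 and Grin2b (r = -0.73), as a description over groups that share mice. Among 11803 protein-coding genes with a mean of at least 5 CPM over these groups, those most like Grin1 were St6galnac6 (r = 0.997), Phyhipl (0.996) and Syp (0.995). Among those most like Grin2a were Afg1l (0.990) and Trappc2 (0.988), and for Grin2b they were Lrrc7 (0.986), Elfn1 (0.986) and Rap2b (0.976). For Grin2c they were Nat8f1 (0.983), Dcp2 (0.973) and D5Ertd579e (0.964), and for Grin3a Chadl (0.961), Tmem246 (0.953) and Apba1 (0.951). Among AMPA members the nearest gene was Zfp706 for Gria1 (0.976), Mmp17 for Gria2 (0.958), Rab11fip4 for Gria3 (0.988) and Spsb3 for Gria4 (0.979), and 9530077C05Rik (0.968) was nearest to Grin2d.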

How the data were processed

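Expected counts per gene were deposited by the authors as 1 table of 108 libraries. Per the labels and the study's methods, reads were trimmed with Cutadapt 1.14, aligned with STAR 2.5.3a to GRCm38.p5 (mm10) with GENCODE v16, as stated, and quantified with RSEM 1.3, from stranded total RNA depleted of ribosomal RNA. The counts deposited are estimates (5.76% of values not whole) and were rounded here. Genes were filtered by expected count (minimum 10, total 15), scaled by TMM and tested with edgeR 4.0.16 (R 4.3.3, quasi-likelihood, Benjamini-Hochberg adjusted p at most 0.1) within each dataset for genotype, over 3 periods of a region for development, and over 3 regions of a period, blocked by mouse. SE is the log2 change divided by the root of F. 8 log2 count ratios (0.5 count added) were compared by exact 2-sided permutation, paired for regions.

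Groups follow the labels. P35_22 and P35_23 were left out, with Cul3 at 97.6 to 117 CPM and 201 to 223 CPM. In each region P35_22, labelled HET, lay below the highest of the other adult HET mice. P35_23, labelled WT, lay above the lowest of the other adult WT mice, so Cul3 levels went with the labels' genotypes. The study's own test also had surrogate factors and sex, which is not in the labels, so those factors are an alternative here. Depth was 15126114 to 44411282 per library, and none of 270 replicate pairs was identical (lowest chi-square per degree of freedom 4.73). Nothing says that mice come from separate litters, so p-values measure the spread between these mice. Values were given for all 10 members, for members with an unadjusted genotype p under 0.05, and for protein-coding genes among the 3 most like a member. Partner genes named were among the 2 of each list that changed most in each direction. Members and lists were chosen with earlier results of these data known. DESeq2 1.42.0, other scalings, no filter, RUVs factors, blocks and omitted mice were alternatives, and fits were tested on simulated data. Of the members, 5 matched a RefSeq promoter record. 1 sequence window and 1 gene of the likeness lists are not reported here.
In E17.5 CX each of the 6 same-numbered WT and HET pairs correlated by more than 0.1 in their deviations from the group means (0.113 to 0.759). In the other 8 datasets at least 1 pair did not. Same-numbered E17.5 mice also share a name prefix, and the labels name no pairs of mice. The median correlation in E17.5 CX was 0.474 for same-numbered pairs, 0.434 for all pairs of the same prefix and -0.206 for pairs of different prefixes.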

Additional observations from a re-analysis of the deposited data

Results flagged for a closer look

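In each group of 5 or 6 mice the gap between the highest or lowest library and its nearest neighbour was set against the group's range. Of 324 groups tested (180 levels and 144 ratios), 18 had a library standing apart beyond Dixon's 95% limit, and chance alone gives about 1 in 20.

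WT P7 CX replicate 4 stood highest for Gria3 (146 CPM), Grin2b (1705 CPM) and Grin2d (32.8 CPM) and for the log2 ratio of Gria3 to Gria2 (-2.19). In that library the summed markers of forebrain glutamatergic neurons were 1539 CPM against 989 to 1223 CPM in the other 5, those of hippocampus 449 against 249 to 280 CPM, and those of astrocytes 2879 against 1545 to 1992 CPM, and their part was not tested. WT adult CB replicate 3 stood highest for Grin1 (272 CPM) and Grin2d (11.4 CPM), with astrocyte markers at 4214 CPM against 3348 to 3779 CPM in the other WT mice. WT adult CX replicate 3 stood highest for Grin2d (6.59 CPM). In WT P7 HIP replicate 5 stood lowest for Grin3a (86.7 CPM) and for its log2 ratio to Grin1 (-1.10).

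Grin2c stood apart in 4 groups, at 1.86 CPM in WT P7 CX replicate 5, 5.80 CPM in HET E17.5 HIP replicate 3, 16.3 CPM in WT E17.5 CB replicate 2 and 328 CPM in HET adult CB replicate 2. The remaining ratios were Grin3a to Grin1 at 0.18 in WT P7 CX replicate 2, and Gria2 to Gria1 at -0.30 in HET P7 HIP replicate 4 and 0.50 in WT P7 CB replicate 2. Gria3 to Gria2 was at -2.82 in WT and -2.67 in HET P7 CB, both in a replicate 6.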

How the results depend on the processing

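Between genotypes, 0 members were called under upper-quartile scaling, DESeq2's size factors, DESeq2, the likelihood ratio test, no filter, the labels' or the supplementary table's genotype for P35_22 and P35_23, and each omitted mouse (lowest adjusted p 0.212 over 1020 values). In adult HIP 1 member was called with 3 RUVs factors (Grin1, 0.17, adjusted p = 0.0644) and 2 with 5 factors (Grin1, 0.16, adjusted p = 0.00255, and Grin2c, 0.14, adjusted p = 0.0693), where these fits called 195 and 475 genes in all, and the cause was not tested. The RUVs fits differed from the main fit in scaling (upper quartile) and test (likelihood ratio) as well as in the factors. Over all alternatives Grin1 in adult HIP ranged from 0.14 to 0.22 and Grin2c from 0.11 to 0.20. With the replicate number as a block 0 members were called in any dataset by edgeR's test, with a lowest adjusted p of 0.179, in E17.5 CX. Over all genes that block called 55 in E17.5 CX, 2 in adult CX and 0 in adult CB, in place of 1 in each. In development the block changed no member call. Replicate numbers there join different mice across periods, so nothing is drawn from that. Of 60 developmental member values 52 were called, 51 with upper-quartile scaling or no filter and 54 with DESeq2. With the mice of a replicate number left out together at all periods, 310 of 360 were called. Between regions 79 of 90 were called and 74 without the mouse block. The 72 genotype and 48 developmental differences of ratios kept their sign with 1 or 0.1 count added. Of the 72, 17 changed sign with medians and 32 with a mouse left out, and of the 48, 2 and 1. Region ratios were not run under these. No filter moved the median of all genes by 0.145 (CX, E17.5 to P7). The omission of the S3 mice and the coding length were chosen after seeing the data.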

Other observations

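Of the 7 editing and co-agonist genes, 5 rose and 2 fell in WT CB at each step, where 35.7% and 40% of all genes rose and 35.5% and 39.4% fell. Of the 6 tested in CX and in HIP 4 rose and 0 fell at each step, against 31.3% to 41.3% of all genes that rose and 31.5% to 40.6% that fell. Slc7a10, a transporter of small neutral amino acids that include D-serine, rose in CX from E17.5 to P7 by 3.11 ± 0.12 on the log2 scale, and Slc6a9, the glycine transporter GlyT1, by 2.39 ± 0.13. Nsf, the vesicle fusion ATPase that binds GluA2, rose by 2.58 ± 0.11 in CX and 3.02 ± 0.14 in HIP at that step. Between adult CX and CB, 8 of 14 auxiliary genes were higher in CX and 5 lower, and of the 7 editing and co-agonist genes 2 were higher and 5 lower, where 75.4% of all genes were called in either direction.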
